A study of Homo sapiens with 32 samples.

Results

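The 10 genes described belong to the bone morphogenetic protein (BMP) pathway: the ligands BMP2, BMP4 and BMP6, the activin subunit gene INHBA, the secreted antagonists GREM1 and FST, and the response genes ID1, ID2, ID3 and SMAD6. They were taken by symbol from a count table of 19023 genes. A row was found for 9 of the 10 genes, and INHBA was not analysed here. The set was chosen by symbol and by the measured changes of BMP2 and BMP4, which had been seen to move in opposite directions in these libraries, so the changes of those 2 genes over time are described with their standard errors and carry no test. The cells were RPE-1, a wild-type immortalised line derived from human retinal pigment epithelium. All had been kept without serum for 18 h and were collected before serum (0 h) or after 5 h, 10 h or 15 h of serum. RNA-seq after removal of ribosomal RNA and Ribo-seq, which sequences the mRNA fragments that ribosomes protect (footprints), each had 4 biological replicates per time, 32 libraries in all. No cells left without serum to the later times are among the samples used here, so the effect of serum and that of elapsed time cannot be told apart, and the serum concentration is not given in the sources used here.

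BMPs are secreted dimers that bind paired type I and type II serine/threonine kinase receptors. The receptors phosphorylate SMAD1, SMAD5 and SMAD9, which enter the nucleus with SMAD4 and switch on genes such as ID1, ID2, ID3 and SMAD6. ID proteins are helix-loop-helix proteins without a DNA-binding region that hold E proteins off DNA, and SMAD6 is an inhibitor that feeds back on the receptors and SMADs. GREM1 (gremlin 1) binds BMP2 and BMP4 outside the cell, and FST (follistatin) binds activins most tightly and some BMPs as well.

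The promoters of the 4 response genes are shown because these SMAD targets moved apart, with ID1 and ID3 rising and SMAD6 falling. Each line is the 250 bases before the start site, read 5′ to 3′ along the gene, from RefSeq on GRCh38.p14. ID1 lies at chr20:31605039-31605288 (plus strand), ID2 at chr2:8681806-8682055 (plus strand), ID3 at chr1:23559502-23559751 (minus strand) and SMAD6 at chr15:66701986-66702235 (plus strand). Capitals mark matches on either strand to GGCGCC and CAGAC, which SMADs can bind, and to the promoter motifs TATAAA and CCAAT.
ID1: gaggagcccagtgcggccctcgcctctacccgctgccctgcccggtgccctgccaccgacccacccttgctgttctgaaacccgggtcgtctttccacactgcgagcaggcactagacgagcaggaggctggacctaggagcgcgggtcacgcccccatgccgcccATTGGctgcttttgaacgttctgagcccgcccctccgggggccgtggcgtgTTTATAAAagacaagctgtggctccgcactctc
ID2: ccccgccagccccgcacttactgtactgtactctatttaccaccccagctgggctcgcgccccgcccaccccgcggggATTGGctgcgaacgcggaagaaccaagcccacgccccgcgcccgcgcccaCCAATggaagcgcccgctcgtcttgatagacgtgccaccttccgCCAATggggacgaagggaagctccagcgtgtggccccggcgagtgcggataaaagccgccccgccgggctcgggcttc
ID3: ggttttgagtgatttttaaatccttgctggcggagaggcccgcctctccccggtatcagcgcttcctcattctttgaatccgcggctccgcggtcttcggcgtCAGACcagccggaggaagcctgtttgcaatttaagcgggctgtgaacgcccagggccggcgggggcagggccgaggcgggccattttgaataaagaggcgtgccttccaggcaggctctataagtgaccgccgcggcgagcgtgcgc
SMAD6: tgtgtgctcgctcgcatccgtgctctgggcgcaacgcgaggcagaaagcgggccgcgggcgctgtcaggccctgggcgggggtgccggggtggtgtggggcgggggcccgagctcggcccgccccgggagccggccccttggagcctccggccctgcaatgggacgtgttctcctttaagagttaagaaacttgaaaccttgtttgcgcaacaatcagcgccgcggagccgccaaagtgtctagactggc
ID1 held TATAAA on both strands, at 33 and 31 bases before the start, where the matches share 4 bases, and CCAAT at 84. ID2 held CCAAT at 172, 122 and 78, ID3 held CAGAC at 147, and SMAD6 held none of these 4 motifs. Over all 35116 promoters of this length, CAGAC was found in 38%, CCAAT in 32%, GGCGCC in 16.4% and TATAAA in 10.7%. TATAAA and CCAAT were added to the search after the sequences had been seen. The search also covered TGACGTCA (1.65% of promoters), TGANTCA (6.57%) and the CArG box (1.16%). Promoters of 9 of the 10 genes were matched by symbol, and that of BMP2 was not analysed here. Among the other genes GREM1 held 2 GGCGCC and 2 CAGAC at its first listed start, BMP4 held 1 of each, and FST held 1 TGANTCA. A match describes the letters only, and the absence of one says nothing about a factor.

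Library totals were 595851 to 1107470 counts for RNA and 2851423 to 9901322 counts for footprints, and the biological coefficient of variation common to all genes was 0.185 and 0.0547. Levels are CPM, counts scaled to a common library size within each assay, given as mean ± SD over n = 4 libraries. Changes are log2 ratios ± SE from edgeR quasi-likelihood fits, relative to the other genes of the same assay. The SE was worked back from the test, as the absolute log2 change over the square root of its F statistic. It is approximate and can be too small where a group has few counts. A gene was called when its Benjamini-Hochberg adjusted p, over all genes tested, was under 0.05. Of the cell-identity markers, RNA counts of RPE65, TYR and PMEL were at or near 0, with at most 1.49 CPM, while MITF ran from 8.65 to 45.1 CPM, OTX2 from 0.934 to 18.2, BEST1 from 0 to 14.4 and RLBP1 from 0 to 4.33. Of 5 markers of simple epithelium, KRT8 ran from 469 to 1024 CPM and KRT18 from 539 to 1170, while KRT19, EPCAM and CDH1 reached at most 4.33. The mesenchymal VIM ran from 4504 to 7445 CPM, FN1 from 1583 to 4062 and CDH2 from 199 to 522. Of the blood genes, HBB and HBA1 had no count, PTPRC reached 3.53 CPM, and CD68, a lysosomal protein, ran from 8.19 to 30.7. In such bulk samples fewer expressing cells and less RNA per cell cannot be told apart.

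**Figure D1:**
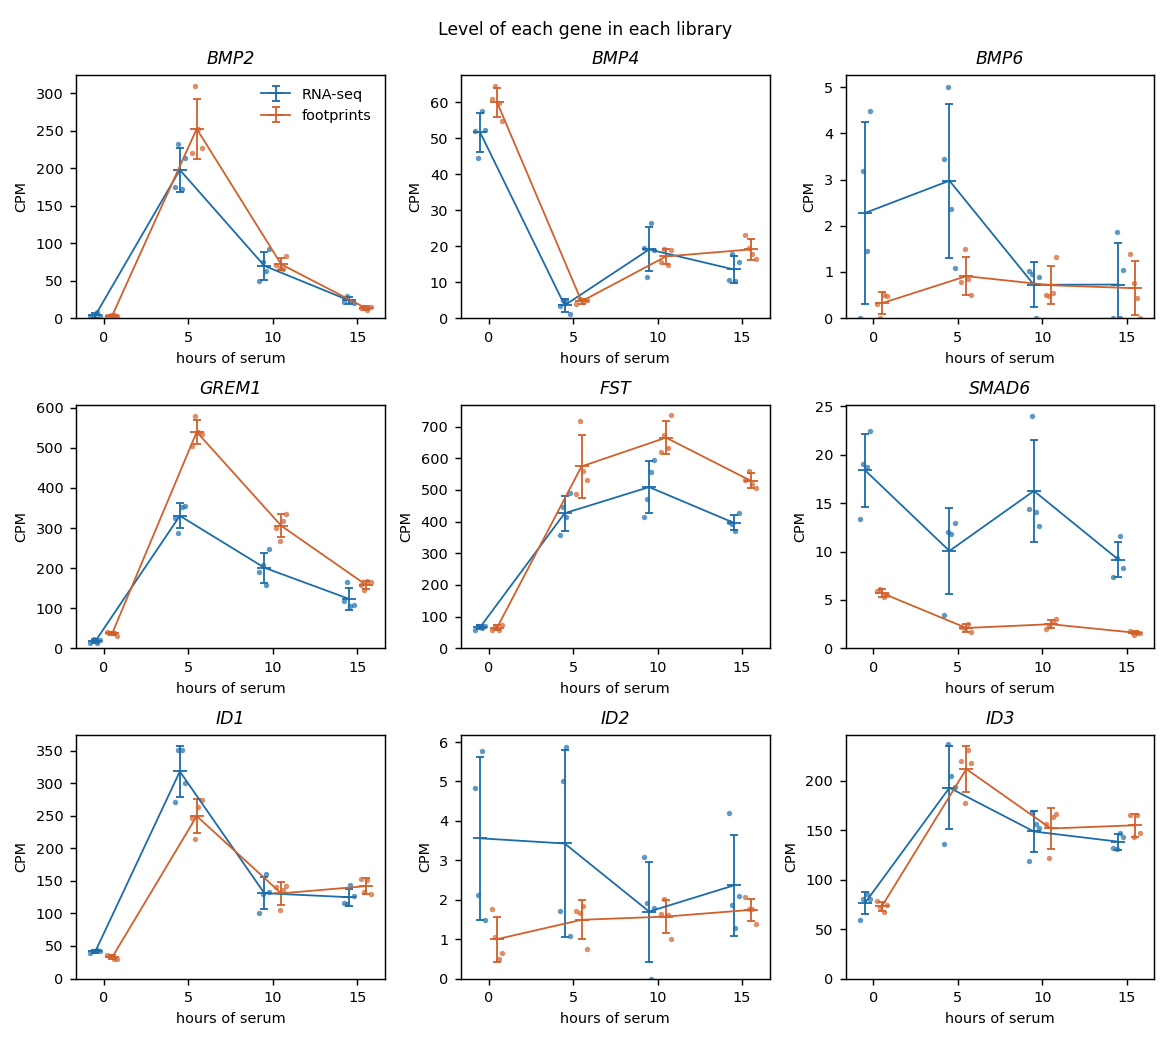
Level of each gene in CPM (linear axis from 0) against hours of serum, with RNA-seq in blue and footprints in orange; points are libraries, lines join means and bars are SD (n = 4). BMP2 stood highest and BMP4 lowest at 5 h in both assays, while BMP6 and ID2 stayed under 6 CPM throughout.

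The ligands BMP2 and BMP4 exchanged places within 5 h. BMP2 (chromosome 20, 6767686 to 6780246) is a ligand best known for inducing bone. Its RNA was at 2.42, 1.06, 8.66 and 2.99 CPM in the 0 h libraries and at 174, 232, 172 and 213 CPM at 5 h. At 10 h it was at 49.2, 75.0, 62.4 and 92.8 CPM and at 15 h at 22.1, 29.9, 23.2 and 19.8 CPM. The 4 times did not overlap, and 0 h was the lowest. The log2 change against 0 h was 5.81 ± 0.33 at 5 h, 4.31 ± 0.36 at 10 h and 2.75 ± 0.41 at 15 h. The 0 h level rested on 11 counts over the 4 libraries, and without the third 0 h RNA library the same changes were 6.60, 5.15 and 3.63. Each shift was larger than the SE above, so the SE understates the uncertainty here.

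BMP2 footprints followed the same course with larger counts. They were at 2.66, 3.61, 3.73 and 3.41 CPM at 0 h, from 69 counts, and at 221, 309, 252 and 227 CPM at 5 h. They then stood at 70.9, 67.5, 65.1 and 83.5 CPM at 10 h and at 13.6, 14.8, 10.3 and 15.3 CPM at 15 h. Again no 2 times overlapped. The log2 change was 6.20 ± 0.18 at 5 h, 4.38 ± 0.21 at 10 h and 1.97 ± 0.28 at 15 h, and the step from 10 h to 15 h was -2.41 ± 0.14.

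BMP4 (chromosome 14, 53949736 to 53956891), a close relative of BMP2, went the other way. Its RNA was at 52.1, 44.5, 57.8 and 52.3 CPM at 0 h and at 3.45, 5.01, 4.71 and 1.08 CPM at 5 h, the latter from 12 counts. It was at 19.5, 11.5, 26.5 and 18.9 CPM at 10 h and at 10.5, 17.8, 10.3 and 15.6 CPM at 15 h. The 0 h libraries were above all others, the 5 h libraries below all others, and 10 h and 15 h overlapped. The log2 change against 0 h was -3.85 ± 0.35 at 5 h, -1.47 ± 0.26 at 10 h and -1.91 ± 0.27 at 15 h. With 12 counts at 5 h, the SE of the first of these may be too small.

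BMP4 footprints were at 60.9, 64.6, 59.8 and 54.9 CPM at 0 h and at 3.96, 5.30, 4.37 and 5.07 CPM at 5 h. They came back to 15.7, 19.2, 14.9 and 18.9 CPM at 10 h and 23, 19.4, 17.7 and 16.4 CPM at 15 h. The 0 h libraries were again the highest and the 5 h libraries the lowest, and 10 h and 15 h overlapped. The log2 change was -3.69 ± 0.12 at 5 h, -1.81 ± 0.09 at 10 h and -1.68 ± 0.09 at 15 h.

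Per coding length, in RPKM, BMP2 made up 6.49 ± 4.80% of BMP2 plus BMP4 RNA at 0 h, 98.2 ± 0.894% after 5 h, then 78.4 ± 8.07% at 10 h, then 64.6 ± 5.97% by 15 h. The footprint share was 5.46 ± 0.811%, 98.2 ± 0.229%, 81.1 ± 1.85% and 42.1 ± 5.50% in the same order. By 15 h BMP4 was thus again the larger of the pair in footprints but not in RNA. The summed footprint level of both was 54.4 ± 3.47 RPKM at 0 h, 227 ± 36.0 at 5 h, then 78.2 ± 8.37 after 10 h and 28.3 ± 3.18 after 15 h. The sum of these 2 genes at 15 h was therefore below its starting level. It is not the sum of all ligands of the family. GDF6, left out of it, had footprints at 82.5 ± 8.55 RPKM at 0 h and 138 ± 13.9 RPKM at 15 h.

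**Figure D2:**
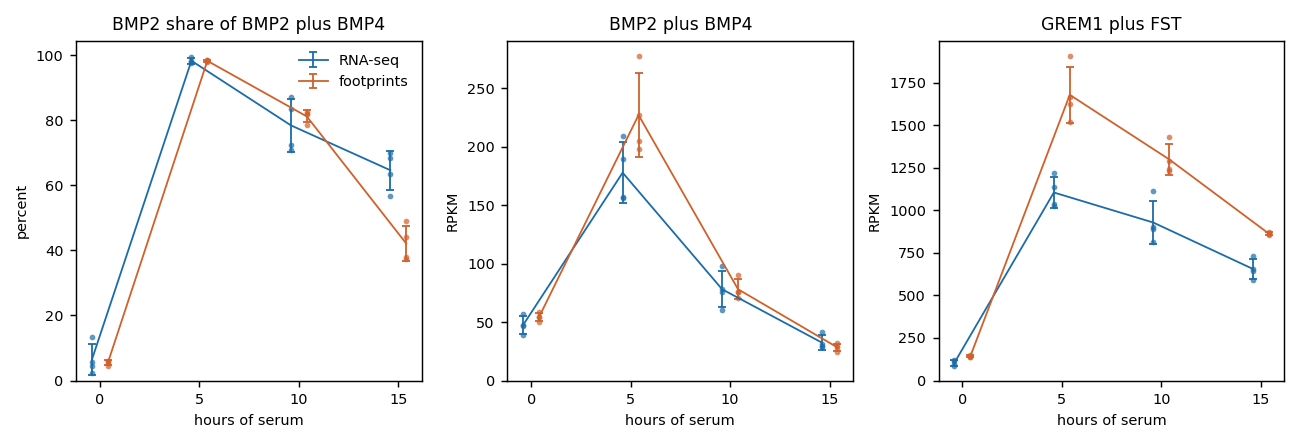
Panels against hours of serum: BMP2 as a percent of BMP2 plus BMP4, the sum of both ligands in RPKM, and the sum of GREM1 and FST in RPKM; RNA-seq in blue, footprints in orange, points are libraries, bars are SD (n = 4). The BMP2 share went from 5.46% to 98.2% of footprints within 5 h, and the GREM1 and FST sum stayed well above the BMP2 and BMP4 sum at 15 h.

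BMP6 (chromosome 6, 7726099 to 7881728), a ligand linked to iron control in the liver, had too few counts to be tested in either assay. Its RNA counts over the 4 libraries of a time were 7, 10, 3 and 3 from 0 h to 15 h, and its footprint counts were 7, 25, 21 and 17.

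Both antagonists rose and remained above 0 h through 15 h. GREM1 (chromosome 15, 32718004 to 32745106) had RNA levels of 12.1, 23.3, 14.4 and 20.9 CPM at 0 h and of 326, 288, 353 and 355 CPM at 5 h. The groups were far apart, at a log2 change of 4.21 ± 0.22 (adjusted p = 2.52e-12, edgeR). At 10 h the RNA was at 201 ± 37.4 CPM (3.50 ± 0.22, adjusted p = 4.74e-11) and at 15 h at 123 ± 27.9 CPM (2.80 ± 0.23, adjusted p = 1.28e-09). GREM1 footprints were at 40.2, 38.9, 38.8 and 32 CPM at 0 h, and at 504, 579, 540 and 534 CPM at 5 h. They fell to 306 ± 28.6 CPM at 10 h and 159 ± 9.82 CPM at 15 h, each step without overlap. These were falls of 0.82 ± 0.06 (adjusted p = 5.41e-15) and 0.94 ± 0.06 (adjusted p = 1.46e-15) on the log2 scale. The RNA fell between the same times by 0.71 ± 0.17 (adjusted p = 0.00401) and 0.71 ± 0.17 (adjusted p = 0.0159). The second RNA step missed the threshold when only the 10 h and 15 h libraries were fitted (adjusted p = 0.0574), and in 5 of the 8 fits that left out 1 library (0.051 to 0.108).

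FST (chromosome 5, 53480629 to 53487134) rose and stayed high. Its RNA was at 58.1, 72, 65 and 71.7 CPM at 0 h, and at 357, 445, 413 and 490 CPM at 5 h (2.68 ± 0.15, adjusted p = 7.25e-12). It was then at 509 ± 82.0 CPM at 10 h and 396 ± 23.8 CPM at 15 h. The 5 h, 10 h and 15 h libraries overlapped, and no step between them was called in RNA (adjusted p = 0.206 and 0.128). The first was called without the first 10 h library (0.0476), and the second with replicate number as a block (0.0195). Footprints were at 58.6, 70.1, 57.6 and 73.1 CPM at 0 h and at 488, 717, 559 and 532 CPM at 5 h (3.14 ± 0.12, adjusted p = 1.97e-13). A fall from 10 h to 15 h was called in footprints, of 0.33 ± 0.10 on the log2 scale (adjusted p = 0.0139). The 5 h and 10 h footprints overlapped (0.21 ± 0.10, adjusted p = 0.0723), a step that was called without the second 5 h or the first 10 h library (adjusted p = 4.85e-06 and 0.0406). That step was also called with replicate number as a block (0.0119).

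Per coding length GREM1 footprints were 1.16 ± 0.230 times those of FST at 0 h, 1.88 ± 0.198 times after 5 h, then 0.908 ± 0.0893 times at 10 h, then 0.593 ± 0.0596 times by 15 h. In RNA the ratio was 0.515 ± 0.109, 1.55 ± 0.239, 0.790 ± 0.158 and 0.616 ± 0.146. The summed antagonist footprints went from 142 ± 5.73 RPKM at 0 h to 1679 ± 163 after 5 h, then 1299 ± 92.0 after 10 h, then 864 ± 8.47 by 15 h, and stayed above the summed BMP2 and BMP4 footprints at every time.

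Of the response genes, ID1 (chromosome 20, 31605289 to 31606510) had the largest log2 rise against 0 h. Its RNA was at 38.8, 42.4, 43.3 and 41.9 CPM at 0 h and at 271, 351, 351 and 300 CPM at 5 h (2.94 ± 0.16, adjusted p = 7.25e-12). It then fell by 1.29 ± 0.15 to 131 ± 24.3 CPM at 10 h (adjusted p = 5.27e-07) and was at 125 ± 13.2 CPM at 15 h, where the last 2 times overlapped. Footprints were at 36.1, 34.4, 30.3 and 30.4 CPM at 0 h and at 247, 214, 264 and 274 CPM at 5 h (2.95 ± 0.11, adjusted p = 5.59e-15). They were at 131 ± 17.2 CPM at 10 h and 142 ± 12.4 CPM at 15 h, overlapping each other and above 0 h in all 4 libraries.

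ID3 (chromosome 1, 23557926 to 23559501) also rose and stayed above 0 h. Its RNA was at 59.4, 80.5, 85.2 and 80.7 CPM at 0 h and at 136, 238, 205 and 194 CPM at 5 h (1.35 ± 0.17, adjusted p = 2.40e-06). It was at 149 ± 21.1 CPM at 10 h and 139 ± 8.15 CPM at 15 h, and its 5 h, 10 h and 15 h libraries overlapped. The RNA step from 5 h to 10 h was not called (-0.39 ± 0.16, adjusted p = 0.106). That step was called with replicate number as a block (0.0201) and without the first 5 h library (0.0292). Footprints were at 78.1, 72.4, 67.6 and 74.1 CPM at 0 h and at 220, 178, 232 and 218 CPM at 5 h (1.55 ± 0.10, adjusted p = 2.60e-11). They fell by 0.49 ± 0.09 from 5 h to 10 h (adjusted p = 9.06e-05), while 10 h and 15 h overlapped at 152 ± 20.3 and 155 ± 11.8 CPM. Per coding length, ID3 and ID1 footprints were at 707 ± 78.2 and 612 ± 64.5 RPKM at 5 h, against 243 ± 14.5 and 80.4 ± 7.15 RPKM at 0 h.

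ID2 (chromosome 2, 8682056 to 8684461), the third ID gene, was barely detected. Its RNA counts summed to 11, 12, 7 and 9 over the libraries of each time, and it was not tested in RNA. Its footprints were at 1.78, 1.06, 0.508 and 0.650 CPM at 0 h, at 1.71, 1.66, 1.83 and 0.761 CPM at 5 h and at 2.07, 1.75, 1.77 and 1.38 CPM at 15 h. The 0 h libraries overlapped each of the later times. The rise was called at 10 h (0.84 ± 0.39, adjusted p = 0.0458) and at 15 h (0.93 ± 0.39, adjusted p = 0.0272) but not at 5 h (0.71 ± 0.40, adjusted p = 0.106). Both calls were lost with DESeq2 (adjusted p = 0.107 and 0.0654) and in 6 and 3 of the 8 fits that left out 1 library. The 10 h call was also lost with RLE scaling (adjusted p = 0.0502) and with replicate number as a block (0.0621). The 5 h change was called without the first 0 h or the fourth 5 h library (adjusted p = 0.0327 and 0.0304).

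SMAD6 (chromosome 15, 66702236 to 66782849), the inhibitory SMAD that is itself a BMP target, fell while ID1 and ID3 rose. Its footprints were at 5.92, 6.16, 5.25 and 5.52 CPM at 0 h, and at 2.24, 1.99, 2.54 and 1.65 CPM at 5 h. They were at 2.02, 2.27, 2.70 and 2.98 CPM at 10 h and at 1.84, 1.42, 1.55 and 1.63 CPM at 15 h. All 12 later libraries were below the 4 libraries at 0 h. The log2 changes against 0 h were -1.43 ± 0.21 at 5 h (adjusted p = 1.24e-07), -1.20 ± 0.20 at 10 h (1.24e-06) and -1.85 ± 0.22 at 15 h (9.95e-10). The step from 10 h to 15 h was called (-0.65 ± 0.24, adjusted p = 0.0336) but not with DESeq2 (0.0881) or in 5 of 8 fits with 1 library left out.

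SMAD6 RNA was less clear. It was at 13.3, 19.1, 18.8 and 22.4 CPM at 0 h, at 3.45, 12, 11.8 and 13 CPM at 5 h and at 14.3, 24, 14 and 12.6 CPM at 10 h. At 15 h it was at 7.35, 9.34, 11.6 and 8.33 CPM. The 15 h libraries were below all 0 h libraries (-1.01 ± 0.33, adjusted p = 0.0144), though the call was lost without the first or the fourth 15 h library (0.0691 and 0.059). The change was -0.79 ± 0.33 at 5 h (adjusted p = 0.0655) and -0.16 ± 0.30 at 10 h (0.702). The 5 h change was called without the first 0 h library (adjusted p = 0.0326) and with replicate number as a block (0.0367).

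**Figure D3:**
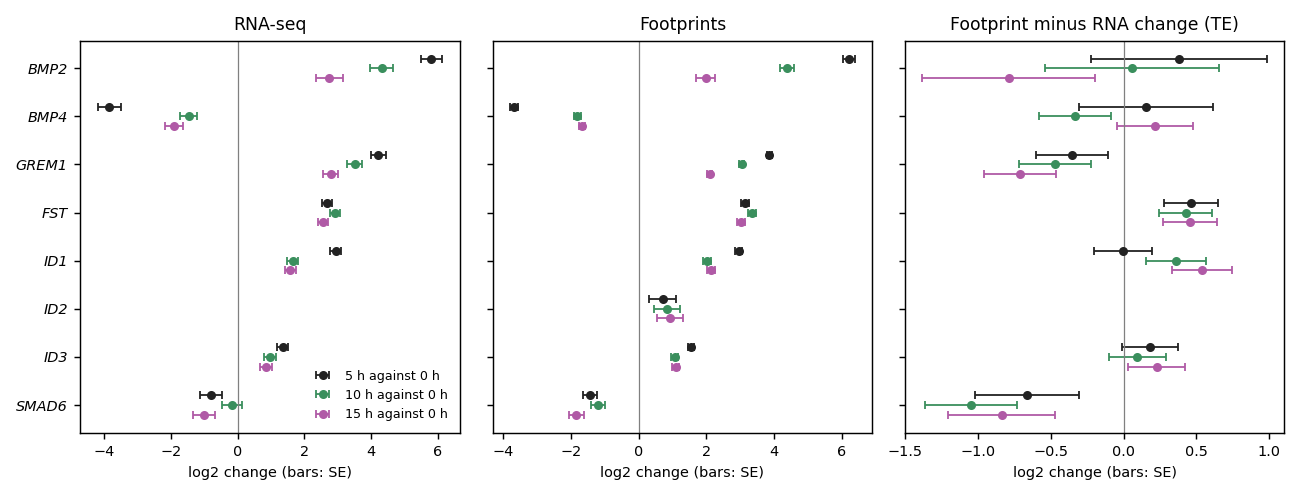
Log2 change of each tested gene at 5 h (black), 10 h (green) and 15 h (purple) against 0 h, with SE bars, in RNA-seq, in footprints and as footprint minus RNA change; ID2 was tested in footprints only. SMAD6 and BMP4 lie left of 0 in footprints at all 3 times, and the other 6 lie right of it.

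Counted without BMP2 and BMP4, 4 of 5 tested genes were called higher in RNA at 5 h and 0 lower, in a contrast where 35.9% of all genes were called, 19.2% higher and 16.7% lower. At 10 h 4 of 5 were higher and 0 lower (44.8% of all genes, 23.3% higher and 21.5% lower), and at 15 h 4 were higher and 1 lower (50.9%, 25.4% in each direction). In footprints 4 of 6 were higher and 1 lower at 5 h (75.7%, 35.2% higher and 40.5% lower). The footprint counts were 5 higher and 1 lower at 10 h (78.4%, 39.4% higher and 39% lower) and again at 15 h (79.7%, 40.1% higher and 39.6% lower). Between 5 h and 10 h, 2 of 5 were lower in RNA (19.7%, 10.1% higher and 9.56% lower) and 3 of 6 in footprints (61.7%, 31% higher and 30.7% lower). From 10 h to 15 h, 1 of 5 was lower in RNA (5.91%, 3.81% higher and 2.11% lower) and 3 of 6 in footprints (41%, 20.8% higher and 20.2% lower). The genes were chosen with such changes known and with a filter that a high group can pass alone, so nothing is read from these counts. The same holds for the median log2 footprint change of the 6 genes, which was 2.25 at 5 h, where the median of all genes was -0.07.

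Translational efficiency (TE), the footprint change minus the RNA change, was tested as an interaction in 1 edgeR fit over both assays. The call was SMAD6 at 10 h, which was lower by 1.05 ± 0.32 on the log2 scale (adjusted p = 0.0308), where 8.7% of all genes were called, 7.69% higher and 1.01% lower. That call was lost in 5 of 16 fits with 1 library left out, with adjusted p from 0.0576 to 0.161. At 5 h and 15 h, 0 of the 5 genes were called, where 6.4% (4.62% higher, 1.77% lower) and 13% (11.2% higher, 1.77% lower) of all genes were, with 1 and 4 genes at an unadjusted p under 0.05. DESeq2 called 0 at 5 h (622 of all genes higher, 206 lower) and 1 at 15 h (1050 higher, 280 lower). The gene called at 15 h was GREM1, whose edgeR value was -0.71 ± 0.25 (adjusted p = 0.0531, DESeq2 0.0272, RLE scaling 0.0421). FST was at 0.46 ± 0.19, 0.43 ± 0.18 and 0.45 ± 0.19 from 5 h to 15 h (adjusted p = 0.146, 0.183 and 0.104). At 15 h ID1 was at 0.54 ± 0.21 (0.0803) and SMAD6 at -0.84 ± 0.37 (0.164). With replicate number as a block, FST was called at 5 h and 15 h (0.0427 and 0.0317) and ID1 at 15 h (0.0300). For BMP2 the TE change was 0.38 ± 0.60, 0.06 ± 0.60 and -0.79 ± 0.59 from 5 h to 15 h, and for BMP4 it was 0.15 ± 0.46, -0.33 ± 0.25 and 0.22 ± 0.26. Each was under 2 SE. Without the third 0 h RNA library the BMP2 values were -0.41 ± 0.77, -0.78 ± 0.75 and -1.66 ± 0.72.

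The level of footprints per RNA, both in CPM, placed the genes differently among 8736 genes. SMAD6 was at 0.311 at 0 h and 0.153 at 10 h, the 11.7 and 2.6 percentiles. GREM1 was at 2.12 at 0 h and 1.29 at 15 h, the 90.2 and 73.1 percentiles. FST, ID1 and ID3 lay between 0.785 and 1.35 at every time.

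The rest of the pathway was read from a list of 78 genes in 6 roles, of which 35 were tested in RNA and 42 in footprints. In RNA 11 rose and 3 fell at 5 h, 10 rose and 5 fell at 10 h, and 8 rose and 6 fell at 15 h. The called counts, 14, 15 and 14 of 35, stand beside 35.9%, 44.8% and 50.9% of all genes. In footprints 16 rose and 18 fell at 5 h, 14 and 21 at 10 h, and 13 and 23 at 15 h. Of the 42, 34 were called at 5 h, 35 at 10 h and 36 at 15 h, where 75.7%, 78.4% and 79.7% of all genes were. The list was drawn up with earlier results of these data known.

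Among the other ligands, 4 of 23 listed genes had enough counts. GDF6 footprints, of a ligand needed for joints and the eye, were at 108 ± 11.2 CPM at 0 h, 92.9 ± 20.4 at 5 h and 299.7 ± 22.5 at 10 h (1.48 ± 0.13 against 0 h, adjusted p = 8.58e-08). TGFB2 fell at 5 h (-1.33 ± 0.06, adjusted p = 3.80e-22) and was near its start at 10 h (-0.06 ± 0.06). TGFB1 (-0.99 ± 0.08, adjusted p = 4.67e-13) and GDF11 (-1.07 ± 0.19, adjusted p = 3.16e-06) were lower at 15 h.

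Among the receptors and co-receptors, 4 rose and 6 fell of 12 in footprints at 5 h (35.2% and 40.5% of all genes), and 1 rose and 9 fell at 15 h (40.1% and 39.6% of all genes). RGMB, a BMP co-receptor, rose from 10.5 ± 0.439 to 71.4 ± 4.86 CPM at 5 h (2.76 ± 0.09, adjusted p = 5.21e-27). The pseudoreceptor BAMBI, which blocks signalling, fell from 32.8 ± 6.55 to 8.33 ± 0.909 CPM (-1.95 ± 0.13, adjusted p = 4.28e-17). TGFBR3, a co-receptor with few footprints, went from 5.51 ± 2.37 CPM at 0 h to 1.42 ± 0.293 CPM at 5 h (-1.98 ± 0.37, adjusted p = 2.95e-05). These levels rest on 111 and 40 counts, and the 0 h libraries spread from 2.37 to 7.63 CPM. The type II receptor BMPR2 was at 104 ± 8.21 CPM at 0 h and first rose to 160 ± 11.2 CPM at 5 h (0.61 ± 0.06, adjusted p = 2.89e-11), with no overlap. It was then below 0 h, at 71.5 ± 2.44 CPM at 10 h and 52.3 ± 5.24 CPM at 15 h (-0.99 ± 0.07, adjusted p = 2.75e-16). The type I receptor BMPR1B, picked out after its values were seen, had few footprints, with 3, 55, 75 and 14 counts over the 4 libraries of each time from 0 h to 15 h. Its CPM at 5 h was 12.9 times that at 0 h (exact 95% interval 4.19 to 64.5, counting error only). It was near the floor at 0 h, and a high group can pass the filter alone, so no test of BMPR1B is given. BMPR1B then fell by 2.38 ± 0.39 on the log2 scale from 10 h to 15 h, without overlap.

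Among the other secreted antagonists and binding proteins, 4 rose and 0 fell of 6 in RNA at 5 h, where 19.2% of all genes rose and 16.7% fell. In footprints 4 rose and 3 fell of 7, where 75.7% of all genes were called. BMPER, which binds BMPs, rose from 1.86 ± 0.698 to 60.6 ± 4.06 CPM at 15 h (5.00 ± 0.15, adjusted p = 6.92e-29). FSTL3, a follistatin relative, rose from 13.9 ± 2.54 to 172 ± 16.2 CPM at 10 h (3.65 ± 0.13, adjusted p = 6.97e-15). CRIM1 rose from 720 ± 13.2 to 1435 ± 42.9 CPM by 15 h, and FSTL1 from 625 ± 22.3 to 1120 ± 36.1 CPM. The antagonist noggin, NOG, was at 2.93 ± 0.851 CPM in footprints at 0 h and fell by 5 h (-1.63 ± 0.33). It was picked out after its values were seen, and a high group can pass the filter alone, so no test of NOG is given. For TE, 0 of 35 pathway genes were called at 5 h, 2 at 10 h and 1 at 15 h, where 6.4%, 8.7% and 13% of all genes were. At 5 h, 4 of the 35 were at an unadjusted p under 0.05. DESeq2 called 1 of them at 5 h, where it called 622 of all genes higher and 206 lower. BMPER was higher at 10 h (2.44 ± 0.64, adjusted p = 0.00943) and 15 h (2.10 ± 0.61, adjusted p = 0.0174). Its RNA had 11 counts at 0 h, and both calls were lost without the first or the second 0 h RNA library (adjusted p from 0.0634 to 0.11). The other call at 10 h was TGFBR2, the type II TGF-beta receptor, which was lower (-0.55 ± 0.17, adjusted p = 0.0381) and was named after its values were seen. That call was lost in 10 of 16 fits with 1 library left out (adjusted p from 0.0539 to 0.132), with at least 10 counts as the filter (0.0598) and with only the groups compared (0.0667).

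Of the ligand-processing proteases, FURIN rose at 5 h (0.41 ± 0.12, adjusted p = 0.00431), and BMP1, which frees BMPs from chordin, fell by 15 h (-0.65 ± 0.06, adjusted p = 5.66e-13). Among the SMADs and their regulators, 6 rose and 5 fell of 12 in footprints at 5 h, where 35.2% of all genes rose and 40.5% fell. The inhibitory SMAD7 rose from 4.28 ± 0.756 to 16.9 ± 2.38 CPM (1.97 ± 0.17, adjusted p = 2.15e-13), opposite to SMAD6. The ubiquitin ligase SMURF2 rose as well (1.86 ± 0.18, adjusted p = 6.19e-12), as did SMAD9 (1.79 ± 0.23, adjusted p = 5.43e-09). SMAD1 was lower at 15 h (-1.17 ± 0.10, adjusted p = 1.09e-13).

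Of the E proteins, the partners that ID proteins hold off DNA, TCF4 was lower at 10 h (-0.50 ± 0.08, adjusted p = 3.30e-07), TCF12 was lower at 5 h (-0.43 ± 0.06, adjusted p = 1.87e-07) and TCF3 was higher at 15 h (0.40 ± 0.12, adjusted p = 0.00403), all in footprints. TCF3 was at 37.2 ± 1.68 CPM at 0 h and 50.6 ± 12.9 CPM at 15 h, without overlap. The 15 h libraries ran from 43.8 to 69.9 CPM, so 1 high library raises the size of this change. Among other targets and ID partners, 0 rose and 2 fell of 5 in footprints at 5 h (35.2% and 40.5% of all genes). The targets MSX1 and MSX2, picked out after their values were seen, had few footprints. From 0 h to 5 h MSX2 went from 3.65 ± 0.783 to 0.472 ± 0.258 CPM, without overlap. MSX1 went from 2.86 ± 0.652 to 4.16 ± 1.02 CPM, with overlap.

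**Figure D4:**
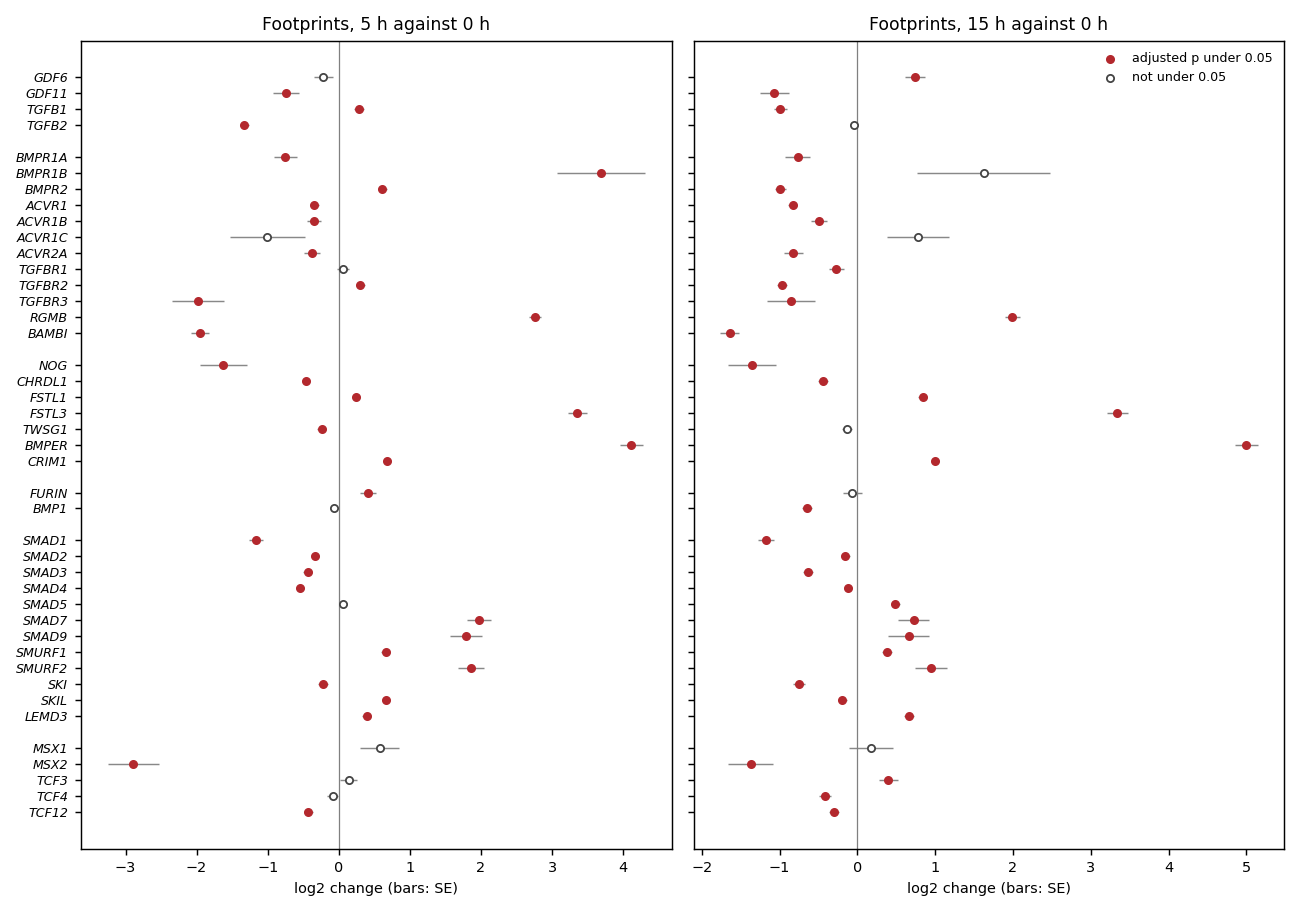
Footprint log2 change with SE of the 42 tested pathway genes at 5 h and 15 h against 0 h, in blocks of ligands, receptors, antagonists, proteases, SMADs and targets from top to bottom; red points had an adjusted p under 0.05. BMPER and FSTL3 lie farthest right at 15 h and BAMBI farthest left, at -1.64.

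The genes whose profiles were most like those of BMP2, BMP4 and ID1 were found by the root mean square difference of log2 CPM from the 0 h mean, over the 24 later libraries of both assays and 8735 other genes. Closest to BMP2 were AKAP12 (0.893), SEMA7A (1.07) and TMEM158 (1.08). AKAP12, a scaffold protein for kinase A, went in footprints from 181 ± 12.3 CPM at 0 h to 3917 ± 232 at 5 h and 979 ± 62.9 at 15 h. Closest to BMP4 were DHRS3 (0.616), MEGF9 (0.631) and PDE5A (0.640), and closest to ID1 were EHD4 (0.366), YRDC (0.376) and MYC (0.393). The BMP2 distances are the larger, and by this measure no gene was as near to BMP2 as EHD4 was to ID1. The distance grows with the size of a change and with noise at 0 h, where RNA counts were 11 for BMP2 and 130 for ID1. It therefore does not show whether the course of BMP2 was less shared.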

How the data were processed

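RNA-seq and Ribo-seq libraries of RPE-1 cells were analysed from 1 table of raw counts per gene that the authors deposited, made, per the submitters' processing notes, with STAR 2.5.4a on GRCh38 and featureCounts 1.5.1. The annotation, strand setting, counting parameters and handling of molecular identifiers are not given in the sources used here, so reads shared with overlapping or similar genes cannot be told apart. The deposited length of each gene, in bases (a multiple of 3 in 96.46% of genes), gave RPKM and is what coding length means here. It need not span the full coding sequence. At 0 h SMURF2 footprints were at 3.38 CPM but 31.3 RPKM, and TGFB1 at 94.5 CPM but 313 RPKM. Their lengths were thus short, and their counts may cover only part of the gene. All 32 columns were matched to samples through the labels, and 0 were left over.

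Libraries were scaled by TMM within each assay, filtered with filterByExpr by time and fitted with edgeR 4.0.16 (R 4.3.3, quasi-likelihood, robust) over the 16 libraries of an assay, with time as the factor. This left 8775 genes in RNA, 10959 in footprints and 8736 in both. TE was the assay-by-time interaction over all 32 libraries. P-values are 2-sided with Benjamini-Hochberg adjustment across every tested gene, and calls are under 0.05. A counting interval was used for BMPR1B alone, and it treats reads as independent molecules, which they need not be. The fits were tested on simulated data. Alternatives were RLE scaling, at least 10 counts in place of the filter, a replicate block, only the groups compared, DESeq2 1.42.0 and each library left out.

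The members and lists were chosen with earlier results of these data known. Named were all members, up to 4 called genes per pathway role with the largest footprint change and a mean of at least 5 CPM, and the 3 genes most like BMP2, BMP4 and ID1 (log2 CPM with a prior count of 2). NOG, BMPR1B, TGFBR2, MSX1 and MSX2 fell outside this rule and were named after their values were seen. BMP6 in both assays and ID2 in RNA failed the filter and are given as counts.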

Additional observations from a re-analysis of the deposited data

Results flagged for a closer look

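In 6 of the 72 groups of 4 libraries examined, 1 library stood far from the other 3, with a gap beyond the 95% critical value of Dixon's ratio. Chance flags about 1 in 20 such groups. SMAD6 RNA was at 3.45 CPM in the first 5 h library, where the others were at 11.8 to 13 CPM, and at 24 CPM in the second 10 h library, where the others were at 12.6 to 14.3 CPM. ID1 footprints were at 105 CPM in the second 10 h library, with the others at 136 to 142 CPM. ID2 footprints were at 0.761 CPM in the fourth 5 h library, with the others at 1.66 to 1.83 CPM. BMP6 footprints were at 1.33 CPM in the fourth 10 h library, with the others at 0.477 to 0.541 CPM, and BMP6 RNA was at 0 in the third 10 h library, with the others at 0.901 to 1.02 CPM, each of these from at most 8 counts.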

How the results depend on the processing

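For 26 counts of called genes, 328 of 386 alternative values were within 1.5-fold of the reported count and 58 were not. With a replicate block, members called at 15 h against 10 h in RNA were 2 (reported 1) and pathway genes 9 (reported 1), TE calls at 5 h were 1 member and 2 pathway genes (reported 0 and 0), and at 15 h 2 members and 2 pathway genes (reported 0 and 1). The members that gained a call were FST in RNA at 15 h against 10 h (adjusted p = 0.0195), FST for TE at 5 h (higher, 0.0427), and FST and ID1 for TE at 15 h (higher, 0.0317 and 0.0300). SMAD6 RNA at 5 h (-0.81, 0.0367), ID3 RNA (-0.38, 0.0201) and FST footprints (0.22, 0.0119) at 10 h against 5 h were also called, and the ID2 footprint call at 10 h was lost (0.0621). The labels do not say that a replicate number marks a shared batch, so the main fits left it out. Same-numbered libraries correlated at -0.27 to 0.57 in RNA, over 0.1 in 17 of 24 pairs, and at -0.06 to 0.17 in footprints, over 0.1 in 1 of 24. The median was 0.198 in RNA against -0.0790 for other numbers, and 0.0339 against -0.0101 in footprints. In RNA 11 and in footprints 9 of 16 libraries were closest to their own number. Same-numbered RNA libraries were thus more alike than others, and calls that change with the block depend on this choice. The block gave 629 genes higher and 541 lower for 15 h against 10 h in RNA (334 and 185 without), 668 and 353 for TE at 5 h (404 and 155) and 1399 and 302 for TE at 15 h (977 and 155). RLE scaling called 1 member for TE at 15 h, and DESeq2 also 1. DESeq2 called 2 pathway genes for 15 h against 10 h in RNA and 1 for TE at 5 h. The filter of 10 counts left 1 pathway gene for TE at 10 h, and fitting only the groups compared left 0 there and 0 members for 15 h against 10 h in RNA. Leaving out 1 library gave 5 to 8 pathway genes for 10 h against 5 h in RNA (reported 9), 0 to 1 members and 0 to 3 pathway genes for 15 h against 10 h, 0 to 1 pathway genes for TE at 5 h, 0 to 1 members and 0 to 2 pathway genes for TE at 10 h, and the same ranges for TE at 15 h. The ID1 TE change at 5 h (-0.01) changed sign with RLE (0.030), the filter (0.063), the replicate block (0.0050), the groups compared (0.050), DESeq2 (0.030) and left-out libraries (-0.085 to 0.11). Leaving out 1 library also let uncalled changes cross 0: ID2 footprints (-0.10 to 0.28 for 10 h against 5 h, -0.054 to 0.22 for 15 h against 10 h), ID3 footprints at 15 h against 10 h (-0.066 to 0.066), ID3 TE at 10 h (-0.064 to 0.18) and ID1 RNA at 15 h against 10 h (-0.13 to 0.041). The cause was not tested. RLE moved all genes by at most 0.04 (log2). Among pathway genes, the RNA calls of BMPR2 at 5 h, BMP1 at 10 h and TCF4 at 15 h were lost under several settings. RNA depth limits SMAD6, BMP4 at 5 h and BMP2 at 0 h.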
